A study of Mus musculus with 4 samples.

Results

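The genes described here encode the proteins of the cytosolic ribosome, measured in mouse T cells cultured under a Tc9 cytokine condition and under a Tc1 cytokine condition. They were taken by symbol from the array's platform annotation (Rpl or Rps followed by a number and any letter suffix, with Rpsa, Rplp0, Rplp1 and Rplp2, and without the S6 kinases). This gave 64 genes among the 19505 named genes of the array, each with 1 probe set, 24 of the small (40S) and 40 of the large (60S) subunit. Rplp2 was not analysed here, and Fau, a ribosomal protein gene whose symbol the rule does not take, is given with the other translation genes. RNA was hybridised to 4 Affymetrix arrays, 2 titled Tc9 and 2 titled Tc1, and the titles number the arrays of each cell type 1 and 2. Tc9 is the usual name of CD8 T cells polarised to make interleukin 9, and Tc1 that of the cytotoxic CD8 T cells whose signature cytokine is interferon gamma. The labels used here name the culture conditions but not the cytokines in them, and give no strain, age or culture time. They also do not say that arrays of 1 cell type came from separate animals, so the p-values measure a spread that may be technical.

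Values are intensities, quantile normalized over the 4 arrays, and changes are Tc9 minus Tc1 on the log2(intensity + 16) scale. Cd3e and Cd8a, which mark T cells and CD8 T cells, exceeded the negative control bound, the 95th percentile of each array's negative control probe sets, on all 4 arrays, and Cd4 on none. As deposited, the median of the probe sets that are no controls was 48.8 and 74.5 on Tc9 arrays 1 and 2, and 47.2 and 74.4 on Tc1 arrays 1 and 2. Deposited values also had more digits on the arrays numbered 1 (median 10) than on those numbered 2 (median 7). The numbers were read as 2 sets of arrays, each with 1 Tc9 and 1 Tc1 array. What a number marks is not given by the labels. Median changes and the changes of most members described are therefore given within each number as well.

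Ribosomal proteins coat the ribosomal RNA of the small subunit, which reads the messenger RNA, and of the large subunit, which joins amino acids. Their genes are among the most strongly transcribed in dividing cells. Their messenger RNAs begin with a C and a run of pyrimidines, the terminal oligopyrimidine or TOP tract, through which the kinase complex mTORC1 and the protein LARP1 control how much they are translated. That control acts on translation and is not measured by an array of RNA levels. In CD8 T cells, activation is known to bring a large increase in ribosome production.

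The TOP tract can be read at the annotated start of several members in RefSeq promoter windows (build GRCm38.p6), which were found for 51 of the 64. The windows below run from 15 bases before the start to the 15 bases that begin with it, with capitals for a tract at the start, here a C followed by at least 4 further C or T. Rps6, Rpl35, Rpl15 and Rps21 are shown because they hold such a tract. Rps9, Rpsa and Rps23 are shown because they had some of the largest differences between the cell types, upward for Rps9 and Rpsa and downward for Rps23, without it.
Rps6: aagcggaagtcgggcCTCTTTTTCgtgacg
Rpl35: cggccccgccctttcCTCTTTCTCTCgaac
Rpl15: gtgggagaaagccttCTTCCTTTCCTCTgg
Rps21: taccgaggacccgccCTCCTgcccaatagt
Rps9: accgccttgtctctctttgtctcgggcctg
Rpsa: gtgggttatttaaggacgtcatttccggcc
Rps23: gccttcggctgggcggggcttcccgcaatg
The windows lie at chr4:86857353-86857382 on the minus strand for Rps6, chr2:39005117-39005146 on the minus strand for Rpl35, chr14:18270972-18271001 on the minus strand for Rpl15 and chr2:180257364-180257393 on the plus strand for the first of the 2 starts of Rps21. Those of Rps9, Rpsa and Rps23 lie on the plus strand at chr7:3704026-3704055, chr9:120127751-120127780 and chr13:90923107-90923136. In Rps9 a run of C and T crosses the annotated start, but the base at the start is a T, so it did not meet the definition.

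A tract at a listed start was found for 12 of the 51 members, or 23.5%, against 3.01% of the 27025 genes in the promoter table. Read on the opposite strand at the same place it was found for 1 of the 51 (2.0%), against 4.07% of all genes. With a tract beginning within 10 bases of a start on either side the counts were 31 of 51 (60.8%) and 34.4% of all genes. CCGGAAG, the core letters bound by ETS factors such as GABP, stood on either strand of the 300-base window of 21 of the 51 (41.2%), against 9.93% of all genes. Its reverse complement ends a run of C and T and can overlap a TOP tract. The letters GGGCGG of a GC box were found for 58.8% of the members and 38.2% of all genes, AAGATGGC, part of the YY1 motif, for 7.8% and 3.19%, and TATAAA for 13.7% and 15.7%. These are matches of letters and not shown to be sites.

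Ribosomal protein transcripts were at nearly the same level in Tc9 and Tc1 cells. The median change over the 64 members was 0.075, a fold of 1.05, against -0.003 over all 19505 genes. By limma 0 of 64 members passed an adjusted p of 0.05, beside 0.564% of all genes (0.385% higher in Tc9), and 0 passed an unadjusted p of 0.05, beside 5.28% of all genes. Most genes of the array are dimmer than the members: 11738 of the 19505 did not reach the negative control bound on any array, whereas 59 of the 64 members had a mean intensity over 1000. Shares are therefore also given over the 1709 other genes above 1000, of which 11.4% passed an unadjusted p of 0.05. At the adjusted p of 0.05 by limma, 15 of these 1709 were higher in Tc9 and 10 lower. Changes ran between -0.12 for Rps23 and 0.36 for Rps4l, with quartiles of 0.024 and 0.137. Over all genes the quartiles lay farther apart, at -0.114 and 0.103. The 95% interval of the change included 0 for each of the 64. Among the 60 members above the negative control bound on all arrays the intervals reached from -0.48 to 0.80, both set by Rpl27. A fold below 0.715 or above 1.74 thus lay outside the interval of each of these 60. The fit leaves out the array number, so its standard errors and p-values hold the difference between the numbers. For Rpl27 the pairs gave 0.25 and 0.067, whereas array 2 minus array 1 was -0.73 in Tc9 and -0.55 in Tc1.

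Most members stood slightly higher in Tc9 in both pairs of arrays. Their median change was 0.072 in the pair numbered 1 and 0.073 in the pair numbered 2. Of the 64, 41 were higher in Tc9 in both pairs (64.1%, against 30.1% of all genes and 34.9% of the other genes above 1000) and 2 were lower in both, Rps23 and Rps27l (3.12%, against 32% and 43.6%). In 19 the pairs went opposite ways, and in 2, Rpl39 and Rpl28, the difference was 0 in 1 pair. Both Tc9 arrays lay above both Tc1 arrays for 17 members (26.6%, against 14% of all genes and 19% of the other genes above 1000) and below them for 0 (against 15.1% and 20.6%). Across the 64 members the changes in the pairs correlated with r = 0.44 (Spearman's rho 0.433), a description over genes of the same 4 arrays.

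**Figure D1:**
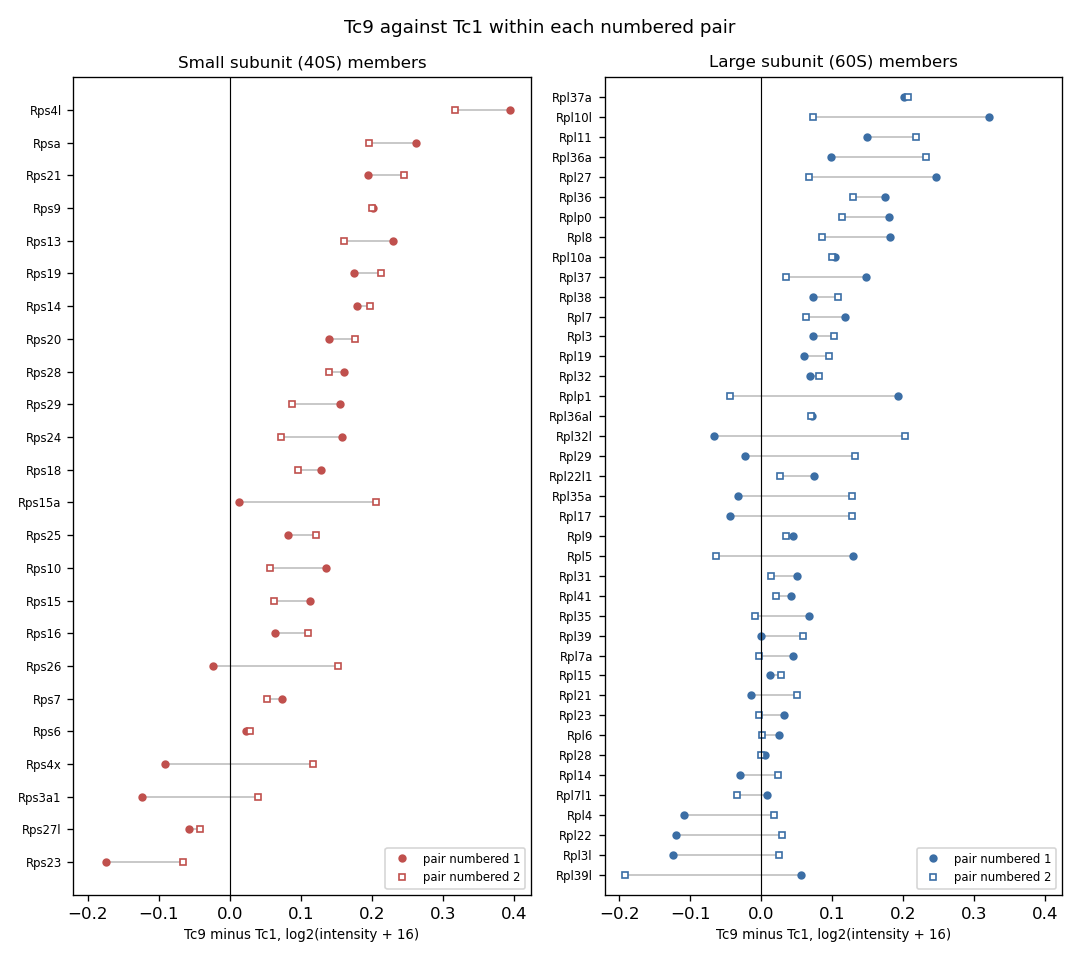
Difference between Tc9 and Tc1 for each of the 64 genes, as Tc9 minus Tc1 on the log2(intensity + 16) scale on the horizontal axis, with 24 small subunit genes on the left and 40 large subunit genes on the right. Filled circles are the pair of arrays numbered 1, open squares the pair numbered 2, and grey lines join them: 19 of the 24 and 22 of the 40 lie right of 0 in both pairs.

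Taking each gene relative to its own mean, the median member stood at 0.061 in Tc9, against -0.006 in Tc1, on the arrays numbered 1, and at 0.017 in Tc9, against -0.085 in Tc1, on the arrays numbered 2. Tc9 was thus higher by 0.068 and 0.102 within the numbers. The means were 0.039 ± 0.0312 in Tc9 and -0.045 ± 0.0554 in Tc1 (SD, n = 2 each), a spread that holds the difference between the numbers. The shift depended on scaling: the members' median was 0.055 with the values as deposited and 0.036 with median centring, upward in each. Among the 1709 other genes above 1000 the median was -0.020, and -0.049 and -0.068 under those scalings. Members supplied 4.82% and 4.63% of the summed normalized signal of all named genes on the Tc9 arrays numbered 1 and 2, against 4.61% and 4.41% on the Tc1 arrays. Members made up 43 of the 195 genes with the brightest probe sets, where brightness of different probe sets does not compare their transcripts.

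With the replicate number as a block, 16 of 64 members passed (25%, beside 13.7% of all genes), 15 higher in Tc9 (beside 6.34% of all genes) and Rps23 lower (beside 7.37%). Of the other genes above 1000 a larger share passed, 37.9%, with 17.5% higher and 20.4% lower, against 27.1% of the 59 members above 1000, with 25.4% higher. The 15 were Rpsa, Rps9, Rps13, Rps14, Rps19, Rps20, Rps21, Rps24, Rps28, Rps29, Rpl8, Rpl11, Rpl36a, Rpl37a and Rplp0. That fit has 1 residual degree of freedom, and its estimated prior degrees of freedom were infinite, so each gene took the spread fitted for its intensity and none from its own arrays. Leaving out 1 array moved the change by over 1.5 times or turned it for 59 of the 64 members, among them all of the 16 but Rps9 and Rpl36a. Of the 16, Rps13 and Rpl8 turned, to -0.01 and -0.09 without the Tc9 array numbered 1. Within the pairs Rps13 changed by 0.23 and 0.16, and Rpl8 by 0.18 and 0.086. Leaving out 1 array unbalances the numbers between the cell types, so the difference between the numbers enters the change. Such values, here and below, therefore do not test the change within the pairs.

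Among the 24 small subunit genes the median change was 0.11 (0.13 and 0.12 in the pairs). With the block 11 passed in either direction (45.8%, beside 13.7% of all genes and 37.9% of the other genes above 1000). Of these, 10 were higher (41.7%, beside 6.34% and 17.5%) and 1 lower (4.17%, beside 7.37% and 20.4%). Rpsa, a protein of the small subunit that has also been described as a laminin receptor at the cell surface, measured 5394 and 4439.8 on the Tc9 arrays numbered 1 and 2, against 4496 and 3874 on the Tc1 arrays. The Tc9 array was higher in each pair, but the lower Tc9 value lay below the higher Tc1 value. Its change was 0.23 ± 0.14 (SE, 0.26 and 0.20 in the pairs; limma adjusted p = 1, with the block 8.07e-06), and it was 0.089 without the Tc9 array numbered 1 and 0.37 without the Tc9 array numbered 2. Rps21, a small protein of the 40S subunit, measured 5794 and 5169 in Tc9, against 5059 and 4358 in Tc1, and its groups did not overlap. The change of Rps21 was 0.22 ± 0.12 (SE, 0.20 and 0.25 in the pairs; limma adjusted p = 1, with the block 8.36e-06), and it was 0.11 without the Tc1 array numbered 2.

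Rps9, a protein at the entry of the messenger RNA channel, had the smallest p of the members. It measured 4496 and 4358 in Tc9, against 3908 and 3790.3 in Tc1, a change of 0.20 ± 0.11 (SE, 0.20 in each pair; limma adjusted p = 1, unadjusted p = 0.0972). Its 95% interval ran from -0.05 to 0.45. Rps23, a protein of the decoding centre, went the other way. It measured 10684 and 10201 in Tc9, against 12055 and 10684 in Tc1, among the highest signals of the array. The higher Tc9 value equals the lower Tc1 value, since quantile normalization gives the same value to the same rank, so the groups touched. The change of Rps23 was -0.12 ± 0.10 (SE, -0.17 and -0.07 in the pairs; limma adjusted p = 1, with the block 0.00430), and it was -0.033 without the Tc1 array numbered 1 and -0.21 without the Tc1 array numbered 2.

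Of the other small subunit genes, Rps13, Rps14 and Rps19 had changes of 0.20, 0.19 and 0.19, in the same direction in both pairs. Rps19 is the gene most often mutated in Diamond-Blackfan anaemia, a human failure of red cell production. Rps20 stood at 0.16, Rps28 at 0.15, Rps29 and Rps24 at 0.12, Rps18 and Rps15a at 0.11, and Rps25, Rps10, Rps15 and Rps16 between 0.087 and 0.10. These 10 were also higher in Tc9 in both pairs, and 0 passed limma. Rps6, the substrate of the S6 kinases downstream of mTORC1, measured 6431 and 6711 in Tc9, against 6329 and 6579.7 in Tc1. Its change of 0.026 (0.023 and 0.028 in the pairs) was among the smallest, and its groups overlapped. Rps7 stood at 0.064 in the same direction in both pairs, and Rps26 (0.065), Rps4x (0.013) and Rps3a1 (-0.042) had opposite directions in the pairs.

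**Figure D2:**
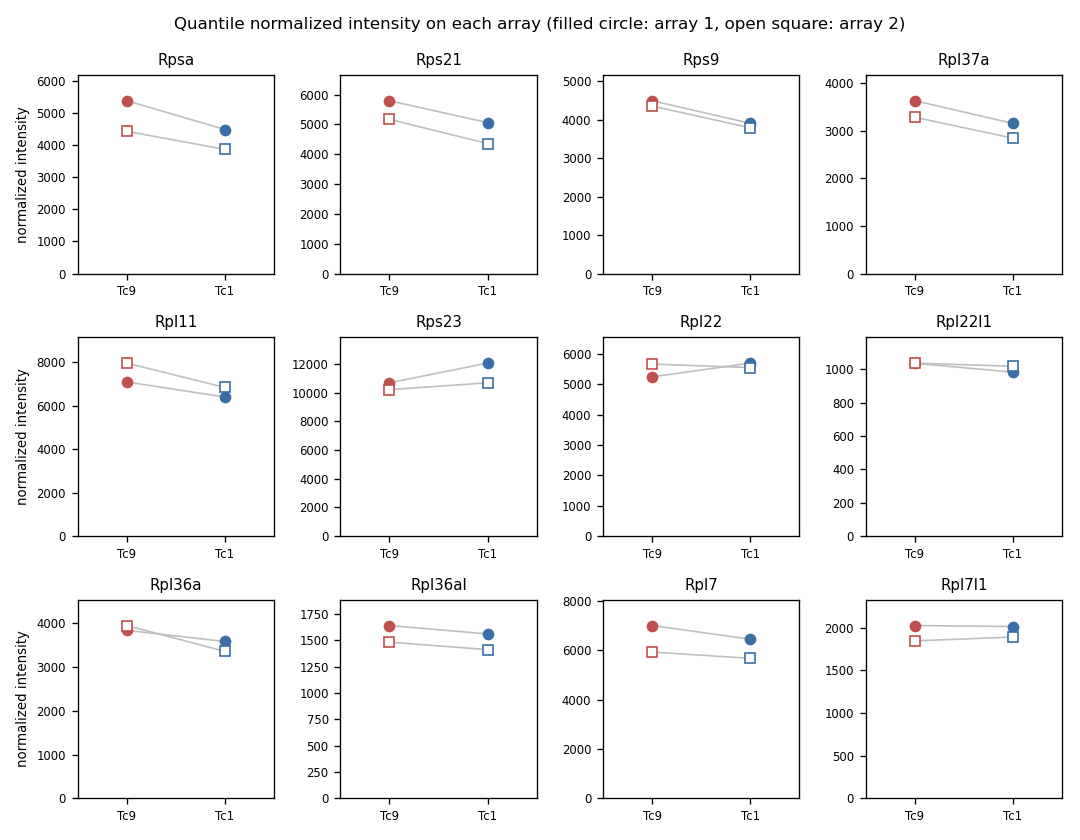
Quantile normalized intensity on the vertical axis, from 0, for 12 members on the Tc9 arrays (red, left) and the Tc1 arrays (blue, right), with filled circles for the arrays numbered 1, open squares for those numbered 2 and grey lines joining arrays of the same number. Rps21, Rps9, Rpl37a and Rpl11 do not overlap between the cell types, whereas Rpsa overlaps and Rps23 lies lower in Tc9.

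Among the 40 large subunit genes the median change was 0.049 (0.058 and 0.055 in the pairs), 22 were higher in Tc9 in both pairs and 0 lower in both, and 5 passed with the block, each higher (12.5%, beside 6.34% of all genes and 17.5% of the other genes above 1000). With median centring their median was -0.008 in the pair numbered 1 and 0.053 in the pair numbered 2. The 40S median lay above the 60S median in both pairs and with each scaling, with 0.083 against 0.034 as deposited and 0.064 against 0.015 with median centring. That difference between the subunits was not tested, since genes are not replicates.

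Rpl37a, a zinc-binding protein of the large subunit, measured 3626 and 3279 in Tc9, against 3151 and 2839.7 in Tc1, without overlap. Its change was 0.20 ± 0.12 (SE, 0.20 and 0.21 in the pairs; limma adjusted p = 1, with the block 0.000703), or 0.13 without the Tc1 array numbered 2. Rpl11, which with Rpl5 and 5S RNA binds and inhibits Mdm2 when ribosome assembly is disturbed, measured 7095 and 7961 in Tc9, against 6397 and 6840.3 in Tc1. These groups did not overlap either, and the change was 0.18 ± 0.11 (SE, 0.15 and 0.22 in the pairs), or 0.10 without the Tc9 array numbered 2. Rpl5 itself measured 6451 and 6459.96 in Tc9, against 5894 and 6748 in Tc1, so that the Tc9 values fell between the Tc1 values, with 0.13 and -0.063 in the pairs.

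The stalk of the large subunit, which recruits translation factors with GTPase activity, is built on Rplp0 with Rplp1 and Rplp2. Rplp0 measured 6198 and 5245 in Tc9, against 5468 and 4844 in Tc1, with overlap and a change of 0.15 ± 0.13 (SE, 0.18 and 0.11 in the pairs; with the block 0.00559 by limma), or 0.027 without the Tc9 array numbered 1. Rplp1 measured 10416 and 9183 in Tc9, against 9113 and 9462 in Tc1, and its pairs disagreed in direction (0.19 and -0.043). Rpl4, a protein that lines the peptide exit tunnel, measured 7239.8 and 8547 in Tc9, against 7805 and 8439 in Tc1, with overlap. Rpl41, a very short basic protein, measured 8689 and 9462 in Tc9, against 8439 and 9328 in Tc1, also with overlap.

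Other large subunit genes were Rpl27 (0.16), Rpl36 (0.15), Rpl8 (0.13), Rpl10a (0.10) and Rpl37, Rpl38, Rpl19 and Rpl32, between 0.075 and 0.092, all higher in Tc9 in both pairs. Rpl38, known for its part in the translation of Hox messages in mouse embryos, measured 3995 and 3874 in Tc9, against 3798 and 3592 in Tc1, without overlap. Rpl9, Rpl31 and Rpl15 had changes between 0.020 and 0.040 in the same direction in both pairs. Rpl29, Rpl35a, Rpl17, Rpl35, Rpl7a, Rpl21, Rpl23 and Rpl14 had changes between -0.003 and 0.055 with opposite directions in the pairs. Rpl28 and Rpl6 differed by less than 0.02.

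Some members are paralogs, second copies that in mammals can take the place of a ribosomal protein in particular tissues. Rpl22, which T cell development in mice requires in the alpha-beta lineage, measured 5252 and 5673 in Tc9, against 5706 and 5559 in Tc1 (change -0.045, with -0.12 and 0.029 in the pairs). Its paralog Rpl22l1 measured 1036 and 1037 in Tc9, against 983 and 1018 in Tc1 (0.051, with 0.075 and 0.026). Rpl22l1 did not overlap between the cell types, by a margin of less than its spread in Tc1, and Rpl22 overlapped. Neither passed with the block.

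Rpl36a measured 3835 and 3945 in Tc9, against 3581 and 3355 in Tc1, without overlap, a change of 0.17 ± 0.11 (SE, 0.099 and 0.23 in the pairs; limma adjusted p = 1, with the block 0.00611). Its paralog Rpl36al, a retroposed copy, measured 1641 and 1484 in Tc9, against 1562 and 1413 in Tc1, with overlap (0.071). Rpl7 measured 7003 and 5928 in Tc9, against 6451 and 5673 in Tc1 (0.091), and Rpl7l1, which resembles a yeast assembly factor of the large subunit, 2026 and 1846 in Tc9, against 2014 and 1890.3 in Tc1 (-0.013). Rpl3, at the peptidyl transferase centre, measured 7466 and 7095 in Tc9, against 7095 and 6606 in Tc1 (0.088, with 0.073 and 0.10 in the pairs). Rps4x measured 3264 and 3391 in Tc9, against 3479 and 3124 in Tc1. Rpl39 measured 4003 and 4590.1 in Tc9, against 4003 and 4404 in Tc1 (0.030).

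Rpl3l, the heart and skeletal muscle form of Rpl3, Rpl39l, known from male germ cells in mice, and Rps4l did not reach the negative control bound on any of the 4 arrays, and Rpl10l, another germ cell form, exceeded it on 1. Rpl3l measured 20.4 and 26.2 in Tc9, against 23.7 and 25.4 in Tc1, and Rpl39l 33.2 and 43.1 in Tc9, against 31.3 and 51.5 in Tc1. Rps4l measured 112 and 80.2 in Tc9, against 81.1 and 61.2 in Tc1, which gave the largest change of the 64, 0.36 ± 0.27 (SE), and Rpl10l 207 and 149 in Tc9, against 163 and 141 in Tc1. At these signals a change could not be measured reliably. Rps27l, a paralog of Rps27 induced by p53, measured 738 and 797 in Tc9, against 769 and 821 in Tc1, lower in Tc9 in both pairs (-0.058 and -0.042) but with overlap. Rpl32l measured 1831 and 1819 in Tc9, against 1917 and 1579 in Tc1, with opposite directions in the pairs (-0.066 and 0.20). Ribosomal protein genes have many processed pseudogenes and near-identical copies, and sharing of signal between probe sets was not tested.

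Most members differed more between the array numbers than between the cell types. The difference between the arrays numbered 2 and 1, averaged over the cell types, was larger in size than the Tc9 minus Tc1 difference for 43 of the 64, with medians of 0.144 and 0.077. It had the same direction in both cell types for 58 members, 22 higher and 36 lower on the arrays numbered 2. For Rpl27, a large subunit protein, the arrays numbered 1 and 2 measured 1676 and 1007 in Tc9, against 1409.9 and 959.9 in Tc1. The same cell type therefore differed between numbers by 0.73 and 0.55, and Tc9 differed from Tc1 by 0.16. Rps19 went the other way, at 1917 and 2476 in Tc9, against 1697 and 2134 in Tc1. Across the 64 genes the number difference in Tc9 and in Tc1 correlated with r = 0.864 (Spearman's rho 0.877), a description of 2 pairs of arrays normalized together. Culture and processing cannot be told apart in it.

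**Figure D3:**
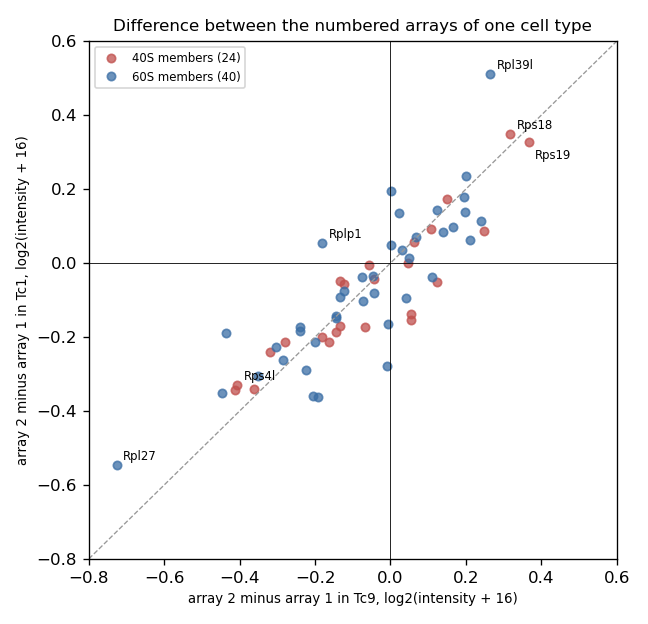
Difference between the arrays numbered 2 and 1 on the log2(intensity + 16) scale, in Tc9 on the horizontal and in Tc1 on the vertical axis, for 24 small subunit (red) and 40 large subunit (blue) genes. Most points follow the dashed line of equal differences, from Rpl27 at -0.73 and -0.55 to Rps19 at 0.37 and 0.33.

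The members' letters at the start were set beside their changes. The median change was 0.058 over the 12 with the tract at an annotated start (between -0.003 and 0.22) and 0.065 over the 39 without (between -0.12 and 0.23). With a tract beginning within 10 bases of a start it was 0.051 over 31 members, and 0.087 over the 20 without. The 39 thus include members with a tract close to the start, and the split does not separate TOP messages from others. With and without CCGGAAG it was 0.064 over 21 and 0.069 over 30 members. The 16 measured genes of the fixed list of other translation genes with TOP messages, which include elongation factors, had a median change of 0.020 (0.024 and 0.040 in the pairs), which flipped to -0.002 with median centring, and 7 were higher and 3 lower in Tc9 in both pairs. By limma 0 of the 16 passed and 0 passed at an unadjusted p of 0.05. With the block 4 were higher (25%, beside 6.34% of all genes and 17.5% of the other genes above 1000) and 1 lower (6.25%, beside 7.37% and 20.4%). Eif3f, a subunit of the initiation factor that binds the small subunit, measured 3025 and 2599 in Tc9, against 2434 and 2133 in Tc1, without overlap (0.30 ± 0.14, SE, with 0.31 and 0.28 in the pairs; limma adjusted p = 1.00, with the block 1.15e-06; 0.19 without the Tc9 array numbered 1). Fau, whose product is cleaved into a ubiquitin-like protein and the small subunit protein eS30, measured 3908 and 3626 in Tc9, against 3439 and 3384.7 in Tc1, also without overlap (0.14 ± 0.11, SE; 0.088 without the Tc9 array numbered 1). Eef1a1, the elongation factor that brings aminoacyl-tRNA, measured 11867 and 11351 in Tc9, against 11550 and 11351 in Tc1, chosen after its values were seen as the brightest of that list.

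No ribosome assembly gene passed limma, although nearly all had a negative change. Of the 51 measured ribosome assembly genes, 50 had a negative change and 47 were lower in Tc9 in both pairs, against 0 higher in both. By limma 0 of them passed and 3 passed at an unadjusted p of 0.05 (5.88%, beside 5.28% of all genes and 11.4% of the other genes above 1000). With the block 32 were lower (62.7%, beside 7.37% of all genes and 20.4% of the other genes above 1000). Their median change was -0.199 (-0.197 and -0.216 in the pairs; -0.222 as deposited and -0.241 with median centring). Brix1, which acts in maturation of the large subunit, measured 1486 and 1463 in Tc9, against 1965 and 1773 in Tc1, without overlap (-0.34 ± 0.13, SE, with -0.40 and -0.27 in the pairs; limma adjusted p = 0.763, with the block 1.78e-06). Nip7, a ribosome assembly factor, measured 1121 and 1096 in Tc9, against 1328 and 1450.2 in Tc1, without overlap (-0.32 ± 0.13, SE; limma adjusted p = 0.874, with the block 6.56e-05). The difference between this list and the ribosomal proteins was not tested.

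RNA polymerase I genes, which make ribosomal RNA, had a median change of -0.193 over 10 measured genes (-0.175 and -0.188 in the pairs), with 7 lower and 2 higher in both pairs. By limma 0 passed and 1 passed at an unadjusted p of 0.05 (10%, beside 5.28% of all genes and 11.4% of the other genes above 1000). With the block 5 were lower (50%, beside 7.37% of all genes and 20.4% of the other genes above 1000) and 1 higher (10%, beside 6.34% and 17.5%). Rrn3, which carries growth signals to the polymerase, measured 932 and 1078 in Tc9, against 1241 and 1409.9 in Tc1, with no overlap (-0.39 ± 0.15, SE, with -0.41 and -0.38 in the pairs; limma adjusted p = 0.760, with the block 6.99e-07). Polr1e, a polymerase subunit, measured 1048 and 905 in Tc9, against 1204 and 1216 in Tc1, also without overlap (-0.31 ± 0.14, SE; -0.20 without the Tc9 array numbered 2). Among 22 translation initiation factors the median was -0.089 (-0.107 and -0.090 in the pairs), with 15 lower and 2 higher in both pairs, 0 passed limma, 0 passed at an unadjusted p of 0.05, and 7 were lower with the block (31.8%, beside 7.37% of all genes and 20.4% of the other genes above 1000). Eif4e, the cap-binding protein, measured 1498 and 1588 in Tc9, against 1837 and 1894 in Tc1, without overlap (-0.27 ± 0.12, SE; limma adjusted p = 0.989, with the block 0.000202). Eif1ax, which acts in start codon selection, measured 1179 and 1057 in Tc9, against 1419 and 1323 in Tc1, without overlap (-0.29).

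Mitochondrial ribosomal proteins, encoded in the nucleus for a separate ribosome, had a median change of -0.109 over 76 genes (-0.087 and -0.122 in the pairs), with 45 lower and 14 higher in Tc9 in both pairs. By limma 0 passed and 1 passed at an unadjusted p of 0.05 (1.32%, beside 5.28% of all genes and 11.4% of the other genes above 1000). With the block 11 were lower (14.5%, beside 7.37% of all genes and 20.4% of the other genes above 1000) and 1 higher (1.32%, beside 6.34% and 17.5%). Mrpl15 measured 484 and 544 in Tc9, against 689 and 705 in Tc1, without overlap (-0.43 ± 0.15, SE, with -0.50 and -0.36 in the pairs; limma adjusted p = 0.689, with the block 2.58e-05), and Mrps30 measured 388 and 423 in Tc9, against 523 and 509.9 in Tc1, also without overlap (-0.34). In the list of mTORC1 and TOP control genes the median was 0.093 over 14 genes (0.093 and 0.106 in the pairs), with 8 higher and 4 lower in both pairs. The list mixes genes that promote and genes that restrain this control, so its median gives no direction of the pathway. By limma 0 of the 14 genes passed and 0 passed at an unadjusted p of 0.05. With the block 2 were higher (14.3%, beside 6.34% of all genes and 17.5% of the other genes above 1000) and 3 lower (21.4%, beside 7.37% and 20.4%). Myc, a transcription factor of ribosome production placed in that list, measured 8019.9 and 7176 in Tc9, against 9462 and 8274 in Tc1, without overlap (-0.22 ± 0.12, SE; limma adjusted p = 1.00, with the block 6.93e-08; -0.12 without the Tc1 array numbered 1). Eif4ebp1, the mTORC1 substrate that restrains Eif4e, measured 478 and 537 in Tc9, against 627 and 628 in Tc1, without overlap (-0.30 ± 0.15, SE). Myc, Eif4ebp1 and Larp1 (-0.22) were the 3 lower with the block, and Rptor (0.30) and Max (0.23) the 2 higher.

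**Figure D4:**
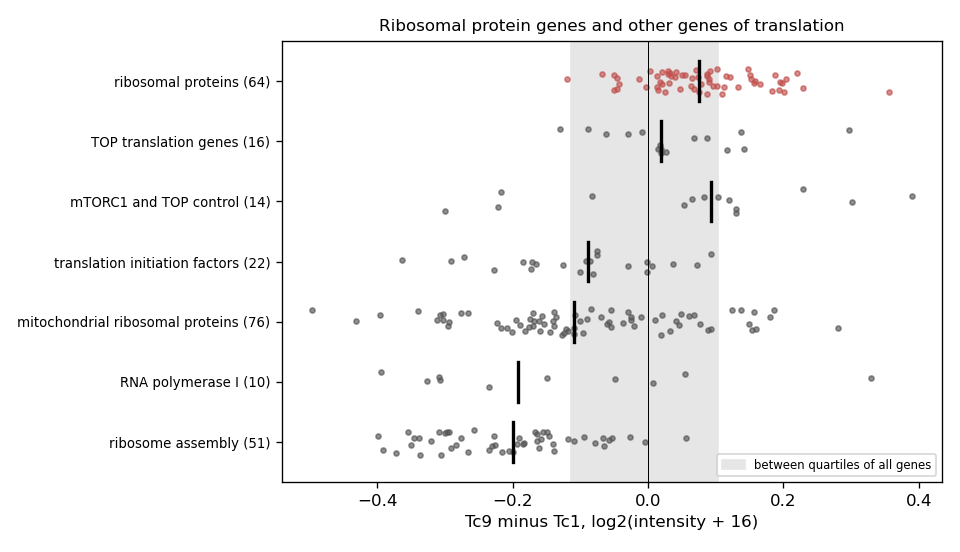
Change of each gene, Tc9 minus Tc1 on the log2(intensity + 16) scale on the horizontal axis, for the 64 ribosomal protein genes (red) and 6 lists of other translation genes (grey), with the number of genes in brackets and a black bar at each median. The grey band runs between the quartiles of all genes, from -0.114 to 0.103: the ribosomal protein median lies at 0.075 and that of ribosome assembly at -0.199, left of the band.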

How the data were processed

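The authors deposited 1 intensity per probe set and array, on a linear scale as read from the values; the software behind it is not given in the sources used here. Per the labels' protocols, RNA was extracted with Trizol and labelled by the Affymetrix protocol. Leaving out 6640 controls of 28846 probe sets, 19572 of the other 22206 had a gene symbol. Intensities of the 22206 were quantile normalized, 16 was added and log2 was taken. The probe set with the highest mean stood for a gene. Tc9 was compared with Tc1 over all 19505 genes with limma 3.58.1 in R 4.3.3 (linear fit and eBayes with trend, 2 residual and 5.09 prior degrees of freedom, Benjamini-Hochberg adjustment, threshold 0.05). The fit was tried on simulated arrays with independent noise and planted changes larger than that of any member. That trial did not cover a difference shared by arrays of the same number, or changes as small as those of the members. The number of arrays limits precision. Arrays were grouped by title. Alternatives were other scalings, pseudocounts, a filter, variance models, the replicate block and leaving out each array. The negative controls are 5222 probe sets whose IDs call them so.

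The members and lists were chosen with earlier results of these data known. Named are members with the 6 highest and 6 lowest changes, the 3 brightest and 3 dimmest, paralogs with partners, Rpsa and the stalk, the 3 whose pairs differ most, and 2 genes of each list with the smallest p; others were added after their values were seen. Markers of B cells (4 of 5 listed genes measured), myeloid cells (5 of 5) and erythroid cells (2 of 5) did not exceed the negative controls' 95th percentile on any array, except Cd79b on 1 and Slc4a1 on 2 arrays. Promoter windows and gene starts came from RefSeq tables.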

Additional observations from a re-analysis of the deposited data

How the results depend on the processing

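The count of 0 ribosomal protein genes past the threshold held under every alternative run except the replicate block, which gave 16. The count of genes past it among the 189 related translation genes was 0 and became 67 with the block. That is 35.4%, beside 13.7% of all genes and 37.9% of the other genes with a mean intensity over 1000. Of the 67, 59 were lower in Tc9 (31.2%, beside 7.37% and 20.4%) and 8 higher (4.23%, beside 6.34% and 17.5%). Over all genes the count of 110 became 16 with the values as deposited, 52 with median centring, 56 without the intensity trend, 2674 with the block and between 186 and 274 without any 1 array. The median change of the members lay between 0.036 and 0.075 under these alternatives and between 0.045 and 0.133 without any 1 array; without the Tc1 array numbered 1 it was 0.133 and without the Tc1 array numbered 2 it was 0.045. Between 34 and 41 members were higher in Tc9 in both pairs; leaving out an array gives no such count. Single genes near 0 turned direction: Rps4x to -0.0275 as deposited, and Rpl39 to -0.0073, Rps4x to -0.0463 and Rpl32l to -0.0074 with median centring. Without any 1 array the lowest and highest changes lay on both sides of 0 for Rpl41 (-0.0409 and 0.1033), Rpl7l1 (-0.0793 and 0.0538), Rpl39 (-0.0687 and 0.1281), Rpl39l (-0.3238 and 0.1883), Rpl4 (-0.1644 and 0.0745), Rpl7 (-0.029 and 0.2107), Rpl36al (-0.0017 and 0.1427), Rps4x (-0.0644 and 0.0901), Rpl32l (-0.0707 and 0.207), Rpl10l (-0.0211 and 0.416), Rps27l (-0.104 and 0.0041), Rpl3l (-0.1552 and 0.0562), Rpl22 (-0.1006 and 0.0104) and Rplp1 (-0.0161 and 0.1654). Without 1 array the cell types no longer hold the same numbers, so the difference between the array numbers enters the change. Rpl7 was higher in Tc9 in both pairs (0.118 and 0.063) and turned without the Tc9 array numbered 1. Its difference between arrays 2 and 1 in Tc9 was -0.24. Other causes of turned directions were not tested. Same-numbered arrays deviated together (r = 0.729 over all genes, 0.864 over the members), but the labels do not say that a number marks a shared culture or day, and the block left each change as it was. Counting only the 60 members above the negative controls, chosen after seeing the data, gave a median of 0.075 and 39 higher in both pairs.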
